A study of Mus musculus with 24 samples.

Results

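The genes described here are 39 genes of the mitotic machinery and of DNA replication, measured in mouse lung. They were taken as a named list of symbols, and each was represented by its brightest probe set, the group of short oligonucleotides on an Affymetrix Mouse 430A array with the highest mean signal for that gene. A probe set was found for 37 of the 39, out of 12393 genes with a probe set of 1 symbol. The expression of Ccnb1 and Cdca8 was not analysed here, and both enter only the counts of promoter motifs. Of the 37, 25 passed a filter on mean level and entered the tests over 8280 genes, and 12 did not: Cdk1, Bub1, Bub1b, Mcm5, Tyms, Tk1, Kif11, Kif20a, Cenpa, Cenpe, Tpx2 and Ect2. The filter lay at a signal of 168.8, with Plk1 at 172 and Cdca3 at 172.1 just above it and Cdk1 at 167.6 and Mcm5 at 166.8 just below it (geometric means over the arrays). No detection calls were used here.

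Lungs of male mice aged 8 weeks, from The Jackson Laboratory, were profiled on 24 arrays, 2 for each of 12 strains. The strains were the progenitors B6 (C57BL/6J) and C3 (C3H/HeJ), their hybrid F1 (labelled BXHF1), and 9 recombinant inbred (RI) strains named BXH2, BXH4, BXH6, BXH7, BXH8, BXH9, BXH10, BXH14 and BXH19. No mouse was treated. An RI strain is inbred from a cross of both progenitors and carries at most loci the allele of one or the other. Whether the 2 arrays of each strain represent different mice is not stated in the labels. The p-values set differences between strains against the spread between arrays of the same strain, and that spread may be only technical.

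A dividing cell first copies its genome and then separates the copies. Minichromosome maintenance proteins (Mcm) form the helicase that opens DNA, Pcna is the sliding clamp of the polymerases, and ribonucleotide reductase, thymidylate synthase and thymidine kinase supply nucleotides. Entry into mitosis is driven by Cdk1 with cyclins A and B, the spindle is built and checked by kinases, kinesins and centromere proteins, and exit follows when Cdc20 and Ube2c direct the ubiquitin ligase that destroys the cyclins. Transcripts of these genes are low in resting cells, and most cells of an adult lung are not dividing. In bulk tissue, fewer dividing cells and less RNA per dividing cell cannot be told apart.

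Mitotic and replication genes are known for different promoter motifs, and the stretches before the start sites of a few of each are shown so that the motifs can be read beside the values. The sequences are RefSeq's, build GRCm38.p6, and 34 of the 39 genes matched an entry of 250 bases before to 50 after the start. Each line gives the 250 bases before the start, 5′ to 3′ on the gene's strand. Capitals mark 3 motifs searched on both strands: the cell cycle genes homology region (CHR, TTTGAA), the CCAAT box (CCAAT), and E2F strings (TTGGCGC or TTCCCGC or TTCGCGC or TTGCCGC). Matches may overlap. Top2a, Prc1 and Ccnb2 passed a test below, and Cdc20, Mcm6 and Mcm5 were chosen as examples after their matches were seen. The stretches lie at chr11:99024190-99024439 (minus strand, Top2a), chr7:80294201-80294450 (plus, Prc1), chr9:70421555-70421804 (minus, Ccnb2), chr4:118437344-118437593 (minus, Cdc20), chr1:128359706-128359955 (minus, Mcm6) and chr8:75109259-75109508 (plus, Mcm5).
Top2a: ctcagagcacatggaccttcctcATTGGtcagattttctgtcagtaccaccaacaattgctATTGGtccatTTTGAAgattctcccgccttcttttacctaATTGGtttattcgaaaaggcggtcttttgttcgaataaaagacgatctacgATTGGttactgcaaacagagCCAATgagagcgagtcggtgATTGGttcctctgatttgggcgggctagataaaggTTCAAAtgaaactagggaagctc
Prc1: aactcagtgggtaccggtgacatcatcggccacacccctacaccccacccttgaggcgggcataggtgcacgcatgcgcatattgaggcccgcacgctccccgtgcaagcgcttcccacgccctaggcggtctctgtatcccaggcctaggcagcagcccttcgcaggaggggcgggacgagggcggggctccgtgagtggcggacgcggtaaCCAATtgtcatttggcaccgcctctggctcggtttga
Ccnb2: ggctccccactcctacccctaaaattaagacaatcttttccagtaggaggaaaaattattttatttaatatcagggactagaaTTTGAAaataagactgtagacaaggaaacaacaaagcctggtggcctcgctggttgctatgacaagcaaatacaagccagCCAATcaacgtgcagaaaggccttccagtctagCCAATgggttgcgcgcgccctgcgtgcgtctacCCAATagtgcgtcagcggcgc
Cdc20: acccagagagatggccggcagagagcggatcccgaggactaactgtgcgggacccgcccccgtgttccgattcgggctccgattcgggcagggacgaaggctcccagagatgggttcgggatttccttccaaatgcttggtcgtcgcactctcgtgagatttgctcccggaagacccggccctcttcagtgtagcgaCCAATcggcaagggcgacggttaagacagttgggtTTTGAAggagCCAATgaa
Mcm6: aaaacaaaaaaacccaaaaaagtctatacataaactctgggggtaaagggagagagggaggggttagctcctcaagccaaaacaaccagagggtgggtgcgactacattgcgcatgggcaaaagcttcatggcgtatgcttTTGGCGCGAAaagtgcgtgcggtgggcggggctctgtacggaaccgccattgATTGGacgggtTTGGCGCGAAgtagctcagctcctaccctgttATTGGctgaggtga
Mcm5: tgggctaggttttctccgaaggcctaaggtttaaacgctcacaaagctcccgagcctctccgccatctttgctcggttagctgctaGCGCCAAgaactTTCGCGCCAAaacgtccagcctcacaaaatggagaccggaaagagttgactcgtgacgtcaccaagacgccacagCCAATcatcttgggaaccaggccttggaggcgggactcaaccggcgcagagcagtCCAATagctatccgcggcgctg

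The Top2a stretch held 6 CCAAT matches and CHR matches that began 179 and 23 bases before the start. In Cdc20 a CHR match began 18 bases before the start, and in Ccnb2 167 bases before it. The CHR match of Prc1 began 5 bases before the start and ran past the end of the printed stretch. The Mcm6 stretch held no CHR match, and its 4 E2F matches overlapped in pairs, beginning 109 and 106, and 46 and 43, bases before the start. Mcm5 held 3 E2F matches in its stretch and no CHR match. Over the whole 300-base window, a CHR match was found for 18 of 24 mitotic genes and for 1 of 10 replication genes, against 20.2% of all 27025 genes with a window and 14.2% of genes tested (17.9% and 11.8% of windows). A CCAAT match was found for 21 of 24 mitotic and 8 of 10 replication genes (41.1% of all genes, 42.2% of genes tested; 37.4% and 36.5% of windows). An E2F match was found for 5 of 24 mitotic genes, 20.8%, and 6 of 10 replication genes (10.9% of all genes, 19.1% of genes tested; 9.57% and 15.8% of windows). The mitotic share for E2F was near that of genes tested. A match is a run of letters and no measured binding site.

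The members varied together over the arrays. The correlation of a member with the mean of the other members over 24 arrays had a median of 0.72 for all 37, 0.78 for the 26 mitotic and 0.58 for the 11 replication members, and 0.03 for the 8255 other genes tested. The arrays share their scaling, and 2 arrays of each strain share a genotype. With differences between strains removed the median was 0.60, and without the 2 arrays farthest from the median, C3 replicate 2 and B6 replicate 1, it was 0.57. Top2a, the topoisomerase that untangles DNA, had the highest value at 0.96. Ccnb2, a B-type cyclin, reached 0.95, and Birc5, the survivin subunit of the chromosomal passenger complex, 0.93. Mcm4 at 0.23, Cdca3 at 0.30, Cenpe at 0.31 and Kif2c at 0.31 were lowest. Among genes outside the list, Kif22, a chromosome-bound kinesin, was most like the member mean at 0.95, followed by Pbk at 0.94, Aspm at 0.89, Cks1b at 0.86, Cenpf at 0.84, Plk4 and Smc2 at 0.83, Anln at 0.81, and Ezh2 and Incenp at 0.79.

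**Figure D1:**
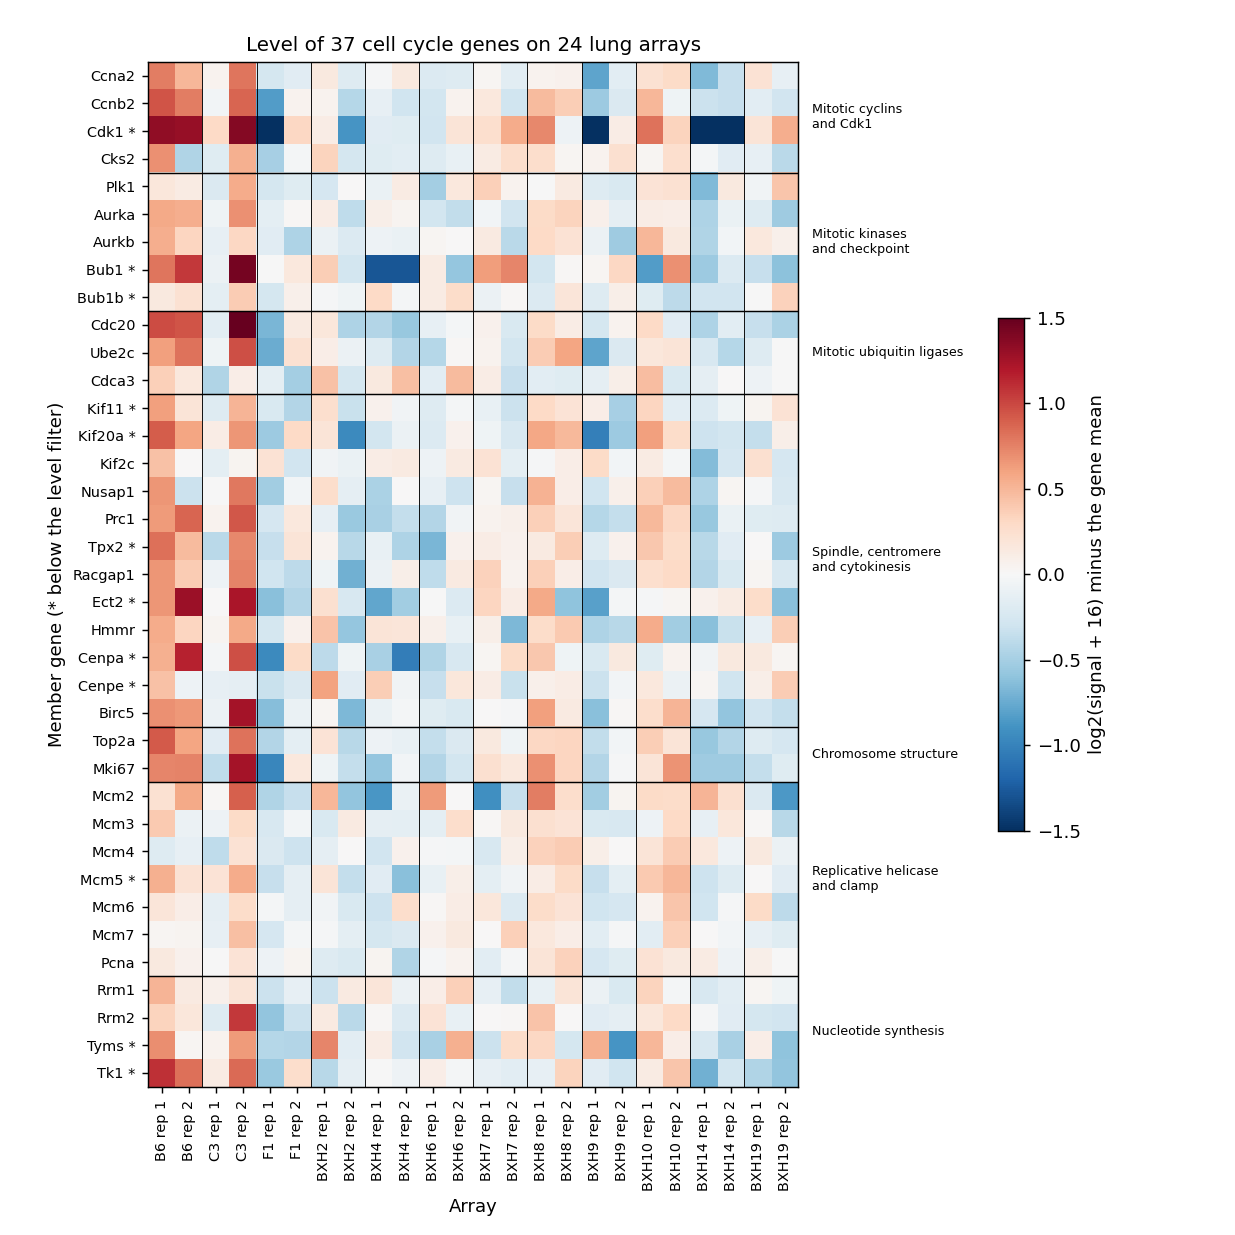
Level of each of 37 members (rows, grouped by role) on each of 24 arrays (columns, 2 for each strain), as log2(signal + 16) minus the gene's mean over the arrays; the colour scale stops at 1.5 on either side, and asterisks mark the 12 members below the level filter. The mitotic rows are mostly red on both B6 arrays and on C3 replicate 2, and paler on C3 replicate 1.

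B6 lungs had the highest strain mean for 23 of the 37 members. As the mean log2(signal + 16) over the members, B6 was at 8.30, C3 at 8.11, BXH8 at 8.02, BXH10 at 8.01, BXH7 at 7.80, BXH6 at 7.74, BXH2 and BXH19 at 7.70, BXH4 at 7.63, BXH9 at 7.59, F1 at 7.56 and BXH14 at 7.54. The span from the highest to the lowest strain was wider for the mitotic members, 8.11 in B6 to 7.19 in BXH14, than for the replication members, 8.76 in B6 to 8.26 in F1. The order is a description, and neighbours in it lie closer to each other than the arrays of C3, of BXH2 or of F1 do, so they cannot be ranked beyond that spread. C3 replicate 1 was at 7.73 and C3 replicate 2 at 8.50, so that the position of C3 rests on the second array. F1 was the lowest strain for 10 members, BXH14 for 9, BXH4 for 7 and BXH9 for 5. No share over all genes is given beside these counts of highest and lowest strains.

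**Figure D2:**
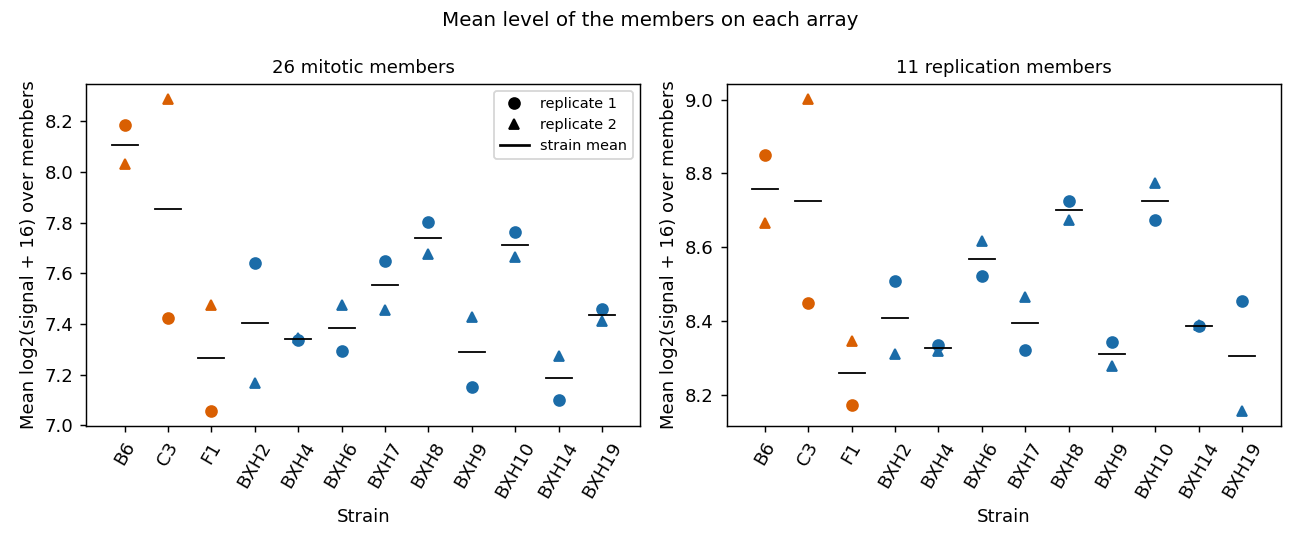
Mean log2(signal + 16) over the 26 mitotic (left) and 11 replication members (right) on each array, by strain; circles are replicate 1, triangles replicate 2, bars the mean of both, orange the progenitors and F1, blue the RI strains. Both B6 arrays lie high in the mitotic panel, and both arrays of C3 lie far apart in both panels.

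Over all 12 strains, Prc1, Top2a and Ccna2 differed between strains, and the other 22 tested members did not pass. The test was a moderated F in limma, with p-values adjusted over 8280 genes by Benjamini-Hochberg and a threshold of 0.05. It called 866 genes, 10.5% of those tested, and 3 of the 25 members, a share near that background. At an unadjusted p below 0.05 there were 13 of 25 members, beside 25.6% of all genes.

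Prc1 cross-links the microtubules of the spindle midzone. Its signal was 388.9 and 457.1 in B6, 252.4 and 476.6 in C3, 201.6 and 272.7 in F1, and between 158.9 and 348.2 with a median of 217.4 over the 18 RI arrays. Both B6 arrays lay above every RI array, and those of C3 did not. Its strains spanned 1.18 on the log2 scale, a 2.26-fold difference between B6 and BXH4 (limma adjusted p = 0.0203).

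Top2a had signals of 884.4 and 701.5 in B6, 408.5 and 821.9 in C3, 335.3 and 415.7 in F1, and 306.4 to 599.8 with a median of 431 in the RI arrays. Here too B6 stood above every RI array, and F1 lay below the RI median on both arrays. Its strains spanned 1.25, from B6 to BXH14 (limma adjusted p = 0.0412).

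Ccna2, the cyclin of S phase and mitotic entry, had signals of 553.5 and 455.6 in B6, 329.5 and 567.3 in C3, 262.3 and 280.1 in F1, and 177.4 to 390.9 with a median of 302.5 in the RI arrays. Both F1 arrays lay below all 4 progenitor arrays. Its strains spanned 1.14, from B6 to BXH14 (limma adjusted p = 0.0418). Ccnb2 had signals of 423.5 and 373.3 in B6, 205.9 and 403.7 in C3, 112.4 and 221.7 in F1, and 141.6 to 307.7 with a median of 185.4 in the RI arrays, and its adjusted p over 12 strains was 0.0872. The count of 3 rested on single arrays. It was 0 without B6 replicate 2 and 11 without C3 replicate 1 (841 of 8283 genes), 5 without C3 replicate 2 (823 of 8274 genes), and 1 without B6 replicate 1 or any one of BXH4 replicate 2, BXH8 replicates 1 or 2, BXH6 replicates 1 or 2, BXH7 replicates 1 or 2, BXH10 replicates 1 or 2, BXH14 replicate 1 and BXH19 replicate 1.

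Against the mean of the 9 RI strains, B6 had higher signals of Prc1, Top2a, Ccna2 and Ccnb2, and no tested member was called lower. On the log2 scale Prc1 was higher by 0.89 (SE 0.19, limma adjusted p = 0.0196), Top2a by 0.84 (SE 0.18, adjusted p = 0.0282), Ccna2 by 0.73 (SE 0.17, adjusted p = 0.0473) and Ccnb2 by 0.95 (SE 0.23, adjusted p = 0.0478), folds of 1.85, 1.79, 1.65 and 1.93. These 4 of 25 stand beside 0.628% of all genes called higher in the same comparison. All 4 are classed here as mitotic, as are most of the 25 tested members. Of the 25 tested members 24 lay above 0, with a median of 0.45, where the median of all genes was 0.01, and 12 had an unadjusted p below 0.05, beside 5.69% of all genes in that direction. The exception was Mcm4, a helicase subunit, at -0.22 (SE 0.13, adjusted p = 0.625), with B6 signals of 440.4 and 461.2 against an RI median of 519.4.

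By role, the mitotic members had the larger median difference. Over the 26 with a probe set the median was 0.73 and all 26 lay above 0, while over the 11 replication members it was 0.28 and 10 lay above 0. Among the ubiquitin ligase genes, Cdc20, which activates the anaphase-promoting complex, was at 1.11 (SE 0.28, adjusted p = 0.0592), and Ube2c, its conjugating enzyme, at 0.81 (SE 0.23, adjusted p = 0.115). B6 had Cdc20 signals of 610 and 598.1, C3 of 269.1 and 917.1, with 181.9 and 334.9 in F1, and 199.5 to 375.7 in the RI arrays. Of the kinases, Aurka, which matures the spindle poles, was at 0.65 (SE 0.17, adjusted p = 0.0838), with 287.1 and 281.1 in B6 against an RI median of 177.9. Racgap1, which with Ect2 sets the cleavage furrow, was at 0.58 (SE 0.19, adjusted p = 0.194), with 425.9 and 345.6 in B6 against 258.5.

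Some members whose mean level lay below the filter, and which were not part of the test, had differences as large. Cdk1, the mitotic kinase itself, had signals of 445.1 and 439.4 in B6, 209.5 and 462.1 in C3, 36 and 212.3 in F1, and 37.7 to 307.6 in the RI arrays, a difference of 1.48 between B6 and the RI mean. Tk1, the salvage thymidine kinase, had 310 and 254.5 in B6, 150.1 and 258.5 in C3, 87.8 and 167.9 in F1, and 76.9 to 187.7 in the RI arrays, a difference of 1.10. With no filter on level, 3 of 37 members were called, Tk1, Prc1 and Top2a, among 98 of 12393 genes, with a limma adjusted p of 0.017 for Tk1. In that fit Cdk1 had an SE of 0.45 and was not called (limma adjusted p = 0.177). Bub1, Ect2 and Cenpa were not called either (adjusted p 0.179, 0.158 and 0.167), nor were Ccna2 and Ccnb2 (0.0735 and 0.0751).

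Both B6 arrays lay above all 18 RI arrays for 16 of the 37 members, 10 of them among the 25 tested, beside 1.03% of all genes tested. They were Ccna2, Ccnb2, Cdk1, Aurka, Bub1, Cdc20, Ube2c, Prc1, Tpx2, Racgap1, Ect2, Cenpa, Birc5, Top2a, Mki67 and Tk1, of which Tk1 alone is a replication member here. Members share tissue samples and are not independent of each other. For C3, whose arrays had member means of 7.73 and 8.50, the same count was 0 of 37, beside 1.23% of all genes.

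**Figure D3:**
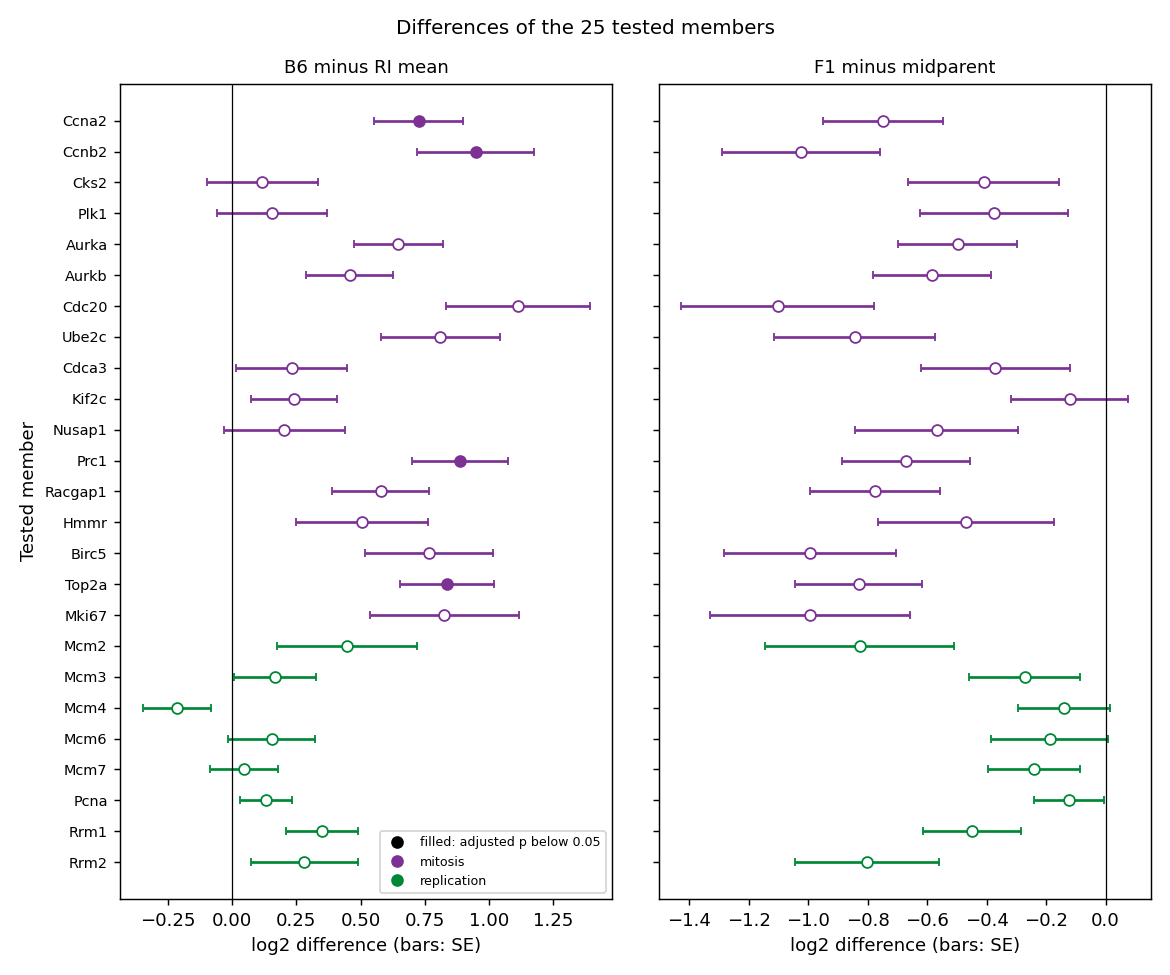
Difference of B6 from the RI mean (left) and of F1 from the mean of both progenitors (right) for the 25 tested members, in log2 units with SE bars; purple marks mitotic and green replication members, and filled points passed an adjusted p of 0.05. In the left panel 24 points lie above 0 and 4 are filled, and in the right panel all 25 lie below 0 and none is filled.

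Markers of tissue other than lung also varied between arrays. The 11 skeletal muscle markers, all measured and 9 tested, had a mean log2 level of 10.08 and 10.24 on the B6 arrays, 6.32 and 9.82 on C3 replicates 1 and 2, and 6.08 to 11.34 on the RI arrays (summed signals 20150 to 20360, 1717 to 17580, and 1177 to 42490). The squamous epithelium markers, 7 of 8 measured and 3 tested, had 7.79 to 9.47 in B6, 5.86 and 8.30 in C3 and 5.90 to 9.30 in the RI arrays. Over the 24 arrays, which share their scaling, the correlation of the member mean was 0.22 with the muscle list, 0.30 with the squamous list and 0.31 with the erythroid list. The largest values of the other sign were -0.33 with the T cell list, -0.26 with the endothelial list and -0.23 with the bone marrow myeloid list. With the muscle or squamous mean as a covariate, chosen after seeing the data, no member was called in B6 against the RI strains. The number of all genes called in these fits is not given here. From the counts given here, a loss particular to the members cannot be told apart from a general loss of calls. With the muscle list Prc1 was then at 0.81 (limma adjusted p = 0.111), Top2a at 0.67, Ccna2 at 0.64 and Ccnb2 at 0.70. With the squamous list they were at 0.85 (adjusted p = 0.0903), 0.68, 0.60 and 0.73. The RI arrays with muscle levels at or above those of B6 had member means of 7.90 and 7.51 in BXH2, 8.08 and 7.97 in BXH8, and 7.51 and 7.68 in BXH9. Those of B6 were 8.38 and 8.22. The part of muscle or squamous tissue in the B6 difference was not tested. Of 10 thymocyte markers 8 were measured and none passed the filter. Their summed signal was 343.5 to 492.6 in B6 and 337.7 to 947 in the RI arrays, and their mean signals ran from 7.91 for Rag2 and 10 for Bcl11b through 31.3 for Rag1, which reached 274.1 on 1 array, to 101.3 for Ptcra and 112.4 for Dntt. Among lung markers, Sftpc of the alveolar epithelium had signals from 9579 to 20160 and Cdh5 of the endothelium from 2554 to 5480; all 8 endothelial markers and 8 of 9 measured epithelial markers passed the filter, and the transcription factor Nkx2-1, at a mean of 156, did not.

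Without B6 replicate 1 or B6 replicate 2 no member was called in B6 against the RI strains (lowest adjusted p 0.161 and 0.154), with the remaining B6 array assumed to vary like the other strains. Without C3 replicate 1 or C3 replicate 2, 6 were called, Aurka and Cdc20 being added, among 121 of 8283 and 117 of 8274 genes. Without BXH10 replicate 2, BXH14 replicate 1, BXH19 replicate 2, BXH2 replicate 2, BXH7 replicate 2, or any 1 array of BXH4, BXH6 or BXH8, 2 were called. Prc1 and Top2a passed when any one array other than a B6 array was left out, and the calls of Ccna2 and Ccnb2 were those lost: over 35 other settings Ccna2 lost its call in 23 and Ccnb2 in 21.

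**Figure D4:**
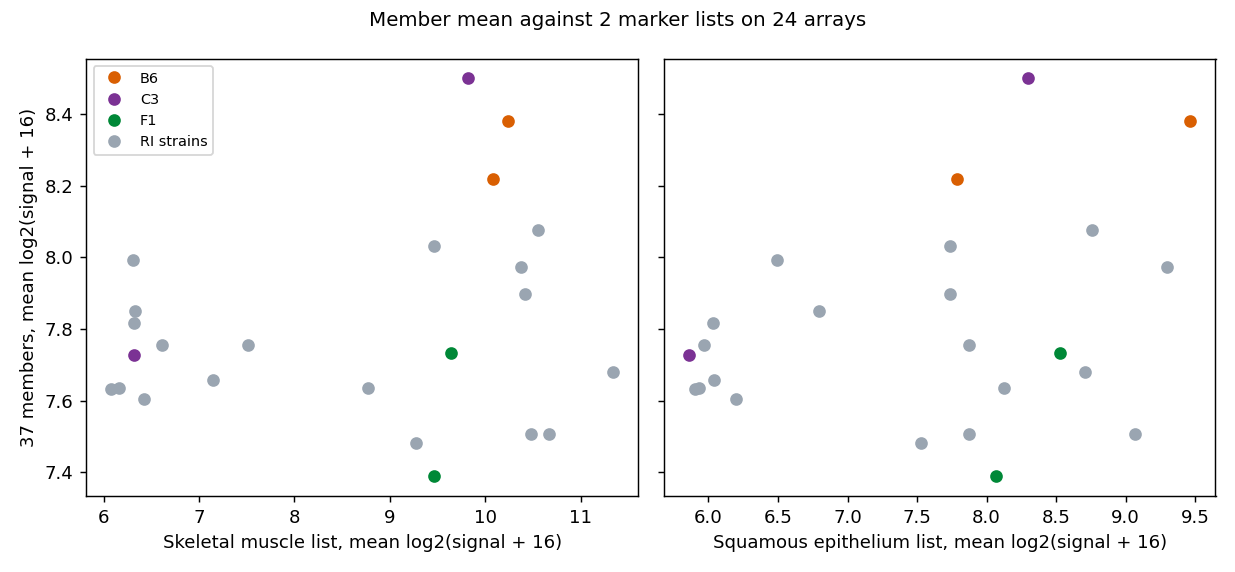
Mean log2(signal + 16) over the 37 members (vertical) against the mean over the skeletal muscle list (left) and the squamous epithelium list (right), 1 point for each of 24 arrays, with B6 orange, C3 purple, F1 green and RI strains grey. Both B6 arrays and C3 replicate 2 lie above every RI array on the vertical axis. RI arrays at similar or higher muscle levels spread from 7.51 to 8.08. The part of other tissue in these levels was not tested.

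F1 hybrids were lower than the mean of their progenitors for every member, but no single member passed. All 25 tested members, and all 37 with a probe set, lay below 0, with a median of -0.57 over the 25, where 54.96% of all genes lay below 0 and their median was -0.02. At an unadjusted p below 0.05, 14 of 25 were lower, beside 5.12% of all genes. After adjustment in limma 0 were called lower (0.00% of all genes, with 2 genes called higher). The smallest adjusted p was 0.263, for Top2a at -0.83 (SE 0.21), Ccnb2 at -1.02 (SE 0.26) and Ccna2 at -0.75 (SE 0.20). Racgap1 was at -0.77 (SE 0.22, adjusted p = 0.298), with signals of 209.8 and 195.9 in F1, 425.9 and 345.6 in B6, 248 and 449 in C3, and 153 to 339.3 in the RI arrays.

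The comparison uses the same B6 arrays as B6 against the RI strains, so the results are not separate observations. Both F1 arrays lay below all 4 progenitor arrays for 12 of 37 members, 7 of 25 tested, beside 9.37% of all genes: Ccna2, Aurkb, Kif11, Racgap1, Ect2, Cenpe, Birc5, Mcm2, Mcm5, Rrm1, Rrm2 and Tyms. Both lay below both B6 arrays for 33 of 37, 21 of 25 tested, beside 21.7% of all genes tested. Against the RI mean F1 had a median of -0.21 over the tested members, with 22 of 25 below 0 and 0 called (lowest adjusted p 0.327, Mcm4 at -0.32, beside 0.266% of all genes called lower). No member had both F1 arrays below all RI arrays, beside 1.12% of all genes. Without C3 replicate 1 the midparent comparison called 5 members, Cdc20, Rrm2, Top2a, Birc5 and Mki67, among 14 of 8283 genes. Without C3 replicate 2 the median was -0.44 and no gene was called.

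Between the progenitors no member passed the test. C3 minus B6 had a median of -0.19 over the tested members, with 18 of 25 below 0, 0 called (1.67% of all genes were) and 0 at an unadjusted p below 0.05. Top2a had the smallest p, at -0.43 (SE 0.25, limma adjusted p = 0.662). Cdca3, an F-box-like trigger of mitotic entry, was at -0.44 (SE 0.29, adjusted p = 0.747); B6 had signals of 224.7 and 194.7 and C3 of 121.4 and 185.5, with 153.6 and 116.2 in F1, and 131.8 to 244.5 with a median of 166.5 in the RI arrays. Both B6 arrays lay above both C3 arrays here, as for 3 of 37 members, 2 of 25 tested, beside 17.7% of all genes tested. The median was -0.50 without C3 replicate 2 and 0.17 without C3 replicate 1.

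The level of C3 depended on the array. Replicate 2 was higher than replicate 1 for 36 of 37 members, by a median of 0.75 on the log2 scale or 1.68-fold, where 54% of all genes were higher and the median of all genes was 0.03. Cenpe was the exception. Birc5 was at 205.5 and 538.7 on these arrays, and Mki67, the proliferation antigen, at 225.7 and 733.2. The same arrays had the muscle markers at 6.32 and 9.82 and the squamous markers at 5.86 and 8.30, whose part in the result was not tested. In BXH2, replicate 1 was higher for 31 of 37 members, by a median of 0.48, where 44.76% of all genes were higher on replicate 2. The muscle markers of BXH2 were at 10.42 and 10.66. In the other 10 strains the median difference between arrays ran from 0.02 to 0.21 in size.

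**Figure D5:**
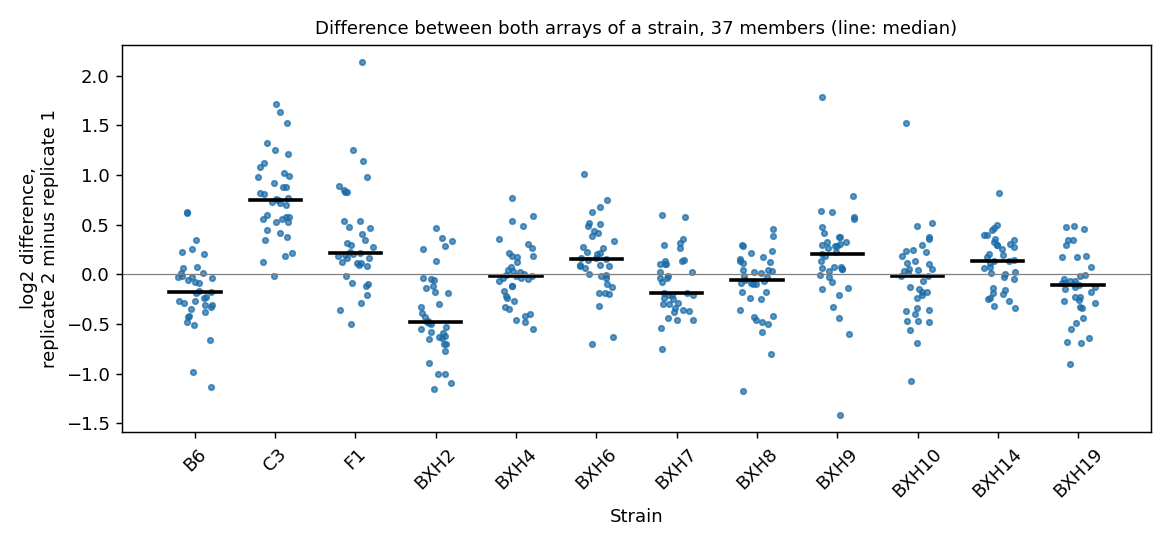
Difference between both arrays of a strain, replicate 2 minus replicate 1 in log2 units, for each of 37 members (points) with the median (bar), by strain. In C3 the points lie above 0 for 36 members with a median of 0.75, and in BXH2 they lie mostly below 0.

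C3 against the RI mean had a median of 0.39, with 22 of 25 tested members above 0 and 0 called higher (0.833% of all genes were); 9 of 25 had an unadjusted p below 0.05, beside 6.80%. Without C3 replicate 1, 7 members were called, among 116 of 8283 genes, and the median was 0.77. Without C3 replicate 2 none was called and the median was -0.01.

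Among the 9 RI strains no member passed the adjusted test. The limma F over these strains called 772 genes, 9.32% of those tested, and 0 of 25 members; 3 of 25 members had an unadjusted p below 0.05, beside 24.9% of all genes. Pcna had the smallest adjusted p, 0.0986. Its signals were 2559 and 2849 in BXH8 and 1873 and 1962 in BXH9, the highest and lowest RI strains, which did not overlap. B6 had Pcna signals of 2482 and 2340, C3 of 2223 and 2585, and F1 of 2125 and 2294. Mcm7, another helicase subunit, was 816.4 and 825.7 in B6, 731.9 and 1101 in C3, 669.8 and 784.3 in F1 and 663.4 to 1030 with a median of 790.8 in the RI arrays. Both B6 arrays lay above both F1 arrays and within the range of C3 and of the RI arrays. Mcm4 was 384.4 and 587.4 in C3, 433.7 and 404 in F1 and 410.7 to 662.6 in the RI arrays, with both BXH8 arrays, at 646.4 and 660.8, near the top.

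BXH8 and BXH10 had the most members above the other 8 RI strains. In BXH8 24 of 25 tested members lay above 0 with a median of 0.33, and in BXH10 all 25 with a median of 0.28, where the medians of all genes were 0.02 and 0.01. In BXH8 10 members and in BXH10 7 members were higher at an unadjusted p below 0.05, beside 5.97% and 5.76% of all genes. No member was called after adjustment in either (lowest limma adjusted p 0.141 and 0.147). The muscle markers were at 10.56 and 10.38 on the BXH8 arrays and at 9.47 and 6.31 on those of BXH10, while the member means were 8.08 and 7.97, and 8.03 and 7.99. In BXH9 and BXH14 the medians were -0.22, with 21 and 22 of 25 below 0; in BXH14 all 17 tested mitotic members lay below 0, and 3 of 8 replication members lay above it. No member was called in any of the 9 contrasts of an RI strain with the rest, in which the share of all genes called was 1.17% for BXH2, 7.63% for BXH4, 1.94% for BXH6, 1.29% for BXH7, 1.39% for BXH8, 2.08% for BXH9, 1.47% for BXH10, 1.23% for BXH14 and 1.22% for BXH19.

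Genes of the cell cycle that are not among the 39 were counted from 9 further lists, 144 genes, of which 128 had a probe set and 87 were tested. In B6 against the RI strains 2 of 87 were called higher and 1 lower, beside the 0.628% and 0.592% of all genes. The higher genes were both on the list of kinesins and cytokinesis genes, 2 of its 6 tested: Kif22 by 1.21 (SE 0.28, limma adjusted p = 0.0424) and Anln, the contractile ring scaffold anillin, by 0.98 (SE 0.19, adjusted p = 0.0123). Rb1, the retinoblastoma protein that holds E2F factors in check, was lower at -0.51 (SE 0.10, adjusted p = 0.0106), and higher in C3 than in B6 by 0.68 (SE 0.13, adjusted p = 0.0077). The list of origin licensing and replication genes had 0 of 21 called and a median of -0.01, and that of the E2F, RB and MuvB genes a median of 0.08 with Rb1 its 1 called gene of 9. The replication chromatin genes had 11 of 11 above 0, a median of 0.24 and 0 called.

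Over 12 strains 8 of the 87 passed (Asf1b, Ccnd1, Cdkn1c, Fen1, Ncapd2, Rb1, Skp1 and Stmn1), beside 10.5% of all genes. Over the RI strains 5 passed (Asf1b, Ccnd1, Cdkn1c, Fen1 and Rb1), beside 9.32%. Neither share exceeded that of all genes. Ccnd1, cyclin D1 of the G1 phase, was lower in BXH14 than in the other RI strains at -0.61 (SE 0.09, limma adjusted p = 0.000847) and in BXH10 at -0.38 (SE 0.09, adjusted p = 0.0427). Asf1b, a histone chaperone, was lower in BXH9 at -0.79 (SE 0.17, adjusted p = 0.0155). Cdkn1c, the inhibitor p57, was lower in BXH6 at -0.73 (SE 0.17, adjusted p = 0.0265), Skp1, a core ubiquitin ligase subunit, lower in BXH2 at -0.46 (SE 0.10, adjusted p = 0.0236), and Ccnd3 higher in BXH4 at 0.38 (SE 0.11, adjusted p = 0.0476).

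A probe set is 1 measure of a gene, and 22 of the members had 36 others. Of these, 29 lay above 0 in B6 against the RI mean and 32 below 0 in F1 against the midparent; of the 13 above the filter, for 10 genes, it was 11 and 13. The second Ccna2 probe set gave 0.81 and -0.68 beside 0.73 and -0.75 for the first, and that of Cks2, a Cdk-binding subunit, 0.69 beside 0.12. Others differed less or not at all: among those above the filter, that of Hmmr gave 0.05 beside 0.51 and that of Rrm1 0.06 beside 0.35 for B6. The second Top2a probe set, at a mean signal of only 6.86, gave -0.12 and 0.08. The probe sets used for Aurkb, Cdc20, Cdca3, Rrm2, Prc1, Mcm2, Mcm3 and Mcm7 carry an x or s suffix in their names, which the manufacturer gives to probes that can bind related transcripts, so those values are less certain.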

How the data were processed

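For each array and probe set the authors deposited an intensity on a linear scale; their software and scaling were not given in the sources used here. Per the labels' protocols, Trizol RNA was amplified to biotin-labelled cRNA. The mean of each array after trimming 2% from each end was 500.11 to 500.13, so the deposited intensity values were used as scaled, as log2(signal + 16). A fold change on that scale understates change at low signal. Of 22690 probe sets, 64 controls were left out, 20380 had 1 symbol, 691 several and 1555 none in the platform annotation. Genes were represented by their brightest probe set, and those in the top 60% by mean were tested. One linear model with 12 strains as groups (12 residual degrees of freedom) was fitted in limma 3.58.1 (R 4.3.3) with empirical Bayes and a mean-variance trend, Benjamini-Hochberg adjusted over all genes tested, and checked on simulated data. The number of arrays limits the precision.

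Signals on the B6, C3 and F1 arrays and the range over the RI arrays are given for the tested members with the smallest p. These were 4 over 12 strains, 4 in F1 against midparent, and 2 each in C3 against B6 and B6 against the RI mean. The same is given for the 3 with the brightest probe sets. Of the RI arrays, only those of BXH8 and BXH9 are given for Pcna. Cdc20, Cdk1 and Tk1 were singled out after their values were seen and are given in the same way. Some values of Aurka, Birc5 and Mki67 are given outside these rules. The members, the companion and marker lists and the tests were chosen with earlier results of these data known. Alternatives tried were normalization, offset, level filter, probe set rule, trend, replicate block and leaving out arrays.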

Additional observations from a re-analysis of the deposited data

How the results depend on the processing

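Across 24 fits that each left out 1 array, the count of members called ran from 0 to 11 over 12 strains, 0 to 6 in B6 against the RI mean, 0 to 1 over the RI strains, 0 to 2 in the contrasts of single RI strains, 0 to 5 in F1 against the midparent and 0 to 7 in C3 against the RI mean. It was 0 under every setting in C3 against B6 and in F1 against the RI mean. In B6 against the RI mean (4 in the fit reported), 2 were called with an offset of 1 and with the mean of all probe sets of a gene, 1 in the top 40% of probe sets, where fewer members were tested, and 0 with the muscle or the squamous list as covariate. Over 12 strains (3) it was 1 with no filter and in the top 40%, 0 with the mean of all probe sets and 5 without both C3 arrays. Over the RI strains (0) it was 1 with either covariate, and in single RI strains (0) it was 1 with no filter. Top2a in C3 minus B6 (-0.43) reversed to 0.06 without C3 replicate 1 and was -0.92 without C3 replicate 2. Shares over all genes are not given beside the counts in this section. The number of genes tested and called also changed with the setting, so a changed count may not be particular to the members. Except where a fit tested fewer members or arrays, the cause was not tested. The covariates and the fit without both C3 arrays were chosen after seeing the data.

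Arrays with the same replicate number did not pair: over 66 pairs of strains the correlation of their deviations ran from -0.30 to 0.34 with a median of 0.00, and 22 pairs were over 0.1. With the replicate number as a block, 2 members, Prc1 and Top2a, were called in B6 against the RI mean, and the count in the other comparisons stayed within 1.5 times of that reported. With 2 arrays a strain, no detection calls used and 12 members below the level filter, small differences in the dim members could not be assessed.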
